A study of Mus musculus with 9 samples.

Results

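Myostatin and the proteins that carry, receive and restrain its signal were examined at the RNA level in mouse gastrocnemius, the large calf muscle. The set was fixed by name, and it was chosen with earlier results of these data known. All 10 genes were found among the 55416 gene identifiers of the table: the ligands Mstn and Gdf11, the secreted follistatin and follistatin-like proteins Fst, Fstl3 and Fstl1, the receptors Acvr2a, Acvr2b and Acvr1b, the transducer Smad3 and the inhibitory Smad7. All 10 passed the filter on low counts, with 12 to 41 expected counts per library for Fstl3 at the low end and 1448 to 2375 for Mstn at the high end. Libraries fell into 3 groups of 3. AET_MET mice were trained on a motorized treadmill on 5 days a week, 60 minutes a day, for 8 weeks, and drank water with metformin, a glucose-lowering drug, at 2 mg/mL. AET mice were trained in the same way without the drug, and SED mice were sedentary. The series' design text names the left gastrocnemius, and the sources used here do not state strain, sex, age or the time between the last run and collection. No group received metformin without training, so an effect of the drug on the training response and an effect of the drug alone cannot be told apart.

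Myostatin is a secreted member of the TGF-beta family that restrains muscle growth, and mice or cattle that lack it have enlarged muscles. It is made as a precursor whose propeptide keeps the mature dimer latent until tolloid-type proteases cut it. The mature dimer binds a type II activin receptor, ACVR2B or ACVR2A, which then activates a type I receptor, ACVR1B or TGFBR1. The type I receptor phosphorylates SMAD2 and SMAD3, and SMAD7 shuts this step off. GDF11 is the closest relative of myostatin, and follistatin (Fst) and follistatin-like 3 (Fstl3) bind both ligands and block them.

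Each library held 15434400 to 25355900 expected counts, which are read numbers estimated per gene. Levels are given as CPM, the count set against the library's total after scaling by the trimmed mean of M-values (TMM), and changes as log2 fold changes ± SE from edgeR's quasi-likelihood test over 13944 genes. Calls were made at 0.05 after Benjamini-Hochberg adjustment over those genes. Nothing in the labels ties each library to a mouse of its own, so a p-value here speaks of the spread among libraries, and that spread may be technical. Libraries of 1 group have names with a common stem, and a cage or batch behind that stem cannot be told apart from the treatment. The 15 defining genes of the muscle fiber summed to 268384 to 307157 CPM in AET_MET, 286752 to 311832 in AET and 279514 to 319830 in SED, with none of them at 0. In whole muscle, fewer cells of a type and less RNA per cell cannot be told apart.

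The promoters of the 3 genes with a called change are shown because they differ in composition. Each run has 250 bases before the RefSeq start and 50 bases from it (build GRCm38.p6, all on the plus strand, 5′ to 3′), and capitals mark matches to the motifs searched. The windows lie at chr1:53061390-53061689 (Mstn), chr15:101173822-101174121 (Acvr1b) and chr9:119401928-119402227 (Acvr2b).
Mstn: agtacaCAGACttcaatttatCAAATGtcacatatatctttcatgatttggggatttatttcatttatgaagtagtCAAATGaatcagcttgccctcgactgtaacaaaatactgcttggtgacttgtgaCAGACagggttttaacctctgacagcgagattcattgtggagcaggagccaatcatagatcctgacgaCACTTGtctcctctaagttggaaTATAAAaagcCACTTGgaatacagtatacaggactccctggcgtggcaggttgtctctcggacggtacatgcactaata
Acvr1b: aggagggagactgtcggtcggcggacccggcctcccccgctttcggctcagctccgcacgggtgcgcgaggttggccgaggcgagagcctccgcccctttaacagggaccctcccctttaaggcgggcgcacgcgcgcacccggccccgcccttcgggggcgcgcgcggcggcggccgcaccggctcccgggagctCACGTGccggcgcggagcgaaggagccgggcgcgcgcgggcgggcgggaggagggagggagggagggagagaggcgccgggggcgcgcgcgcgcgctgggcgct
Acvr2b: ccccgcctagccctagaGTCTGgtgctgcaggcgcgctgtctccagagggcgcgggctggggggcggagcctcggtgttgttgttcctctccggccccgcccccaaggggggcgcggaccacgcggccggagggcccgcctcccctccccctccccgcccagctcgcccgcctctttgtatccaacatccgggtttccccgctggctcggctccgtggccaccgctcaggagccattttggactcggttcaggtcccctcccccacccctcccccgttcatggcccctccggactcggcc

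The motifs were the E-box CANNTG, bound by myogenic and other helix-loop-helix factors, the SMAD element CAGAC, the FOXO element GTAAACA, the TATA box TATAAA and the full glucocorticoid response element, each on both strands. The Mstn window held 4 E-boxes, at -229, -174, -52 and -19 from the start, 2 SMAD elements at -244 and -120, and a TATA box at -29. The Acvr1b window held 1 E-box at -54, and the Acvr2b window held 1 SMAD element at -233. Over all 32851 RefSeq windows of this length, 72.3% held an E-box, 49.6% a SMAD element, 13.6% a TATA box, 3.65% a FOXO element and 0.00913% the glucocorticoid response element. The letters G and C made up 41.3% of the Mstn window, 79.7% of the Acvr1b window and 73.3% of the Acvr2b window, against a median of 52.7%. A window was found for 8 of the 10 genes. Among the other 5, Gdf11 had 1 E-box and 1 TATA box, Fstl3 had 3 E-boxes, 2 SMAD elements and 1 TATA box, Acvr2a had 1 SMAD element, and Fstl1 and Smad3 had no match to these letters. The TATA letters of Gdf11 lay at -185, and those of Fstl3 at -29 on the opposite strand (TTTATA).

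Per length of merged exons, Mstn was the most abundant of the 10 in each group, at 37.9 ± 2.87 CPM per kb in AET_MET, 23.8 ± 1.70 in AET and 29.9 ± 5.64 in SED (SD, n = 3). Fstl3 was the least abundant, at 0.315 ± 0.0918 CPM per kb in AET_MET, 0.598 ± 0.179 in AET and 0.398 ± 0.103 in SED. The gene after Mstn in this order was not the same in each group. It was Acvr1b in AET_MET (10.5 ± 1.05 CPM per kb), Smad3 in AET (11.4 ± 1.87) and Acvr1b in SED (15.7 ± 0.645). Several neighbours in the order had overlapping libraries, so their order is not settled: Acvr2a, Smad3 and Fstl1 in AET_MET, Smad3 and Fstl1 in AET, and Smad3, Fstl1 and Acvr2a in SED. The same held for Smad7 and Fst in AET_MET and in AET, and for Smad7, Acvr2b and Fst in SED. Merged exons take in every annotated transcript, with 1 for Acvr1b and 6 for Acvr2b. The order between genes therefore also depends on which transcripts are present, which was not examined. Acvr2a stood above Acvr2b in each group without overlap, at 7.94 ± 1.02 against 2.00 ± 0.160 CPM per kb in AET_MET, 5.94 ± 0.676 against 1.90 ± 0.199 in AET and 6.88 ± 1.07 against 1.38 ± 0.162 in SED.

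**Figure D1:**
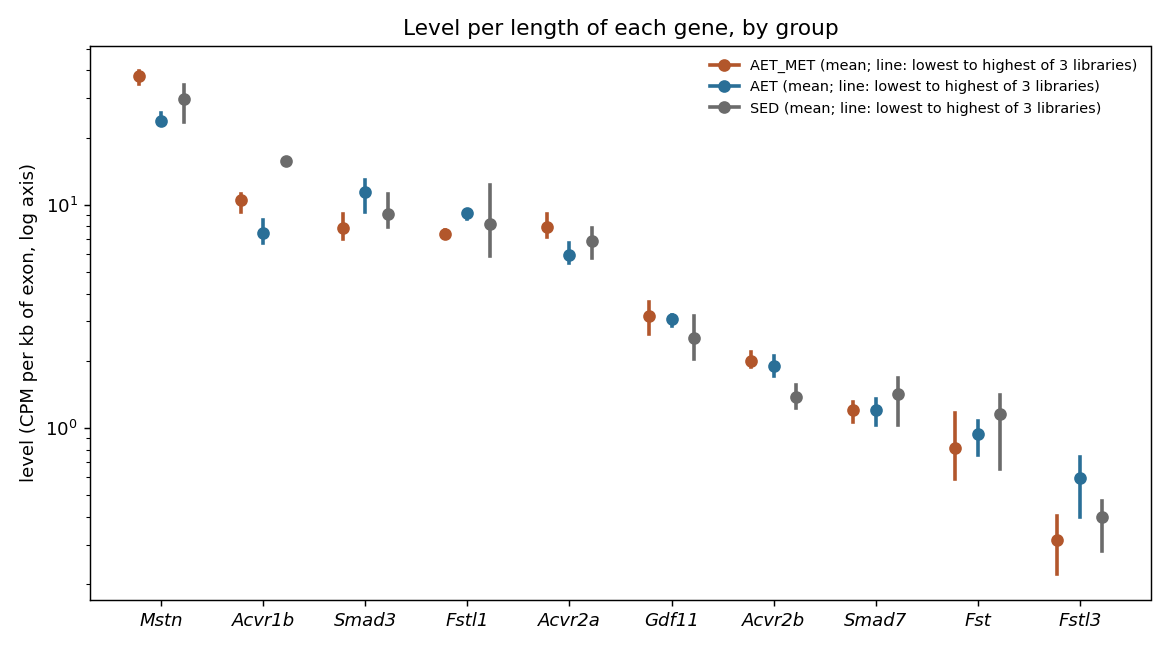
Level of each gene as CPM per kb of merged exon (log axis) in AET_MET, AET and SED, ordered by the level over all groups; points are means and lines run from the lowest to the highest of 3 libraries. Mstn lies highest at 23.8 to 37.9 CPM per kb and Fstl3 lowest at 0.315 to 0.598, and Acvr1b shows 3 separate group levels.

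Both ligands were measured in every library. Mstn had 107, 93.6 and 107 CPM in AET_MET, 69.8, 61.9 and 61.7 CPM in AET, and 85.9, 63.8 and 93.0 CPM in SED. The AET_MET libraries all lay above the AET and the SED libraries, while AET and SED overlapped through SED replicate 2. Mstn was higher in AET_MET than in AET, at 103 ± 7.76 against 64.5 ± 4.61 CPM (SD, n = 3), with a log2 change of 0.67 ± 0.12 (edgeR adjusted p = 0.0210). Leaving out AET_MET replicate 1 or 3, or any 1 of the AET replicates, ended the call, where the change stayed between 0.63 and 0.73. Against SED, the Mstn estimates had opposite signs in the trained groups and neither passed the test. The change was -0.33 ± 0.12 in AET (edgeR adjusted p = 0.105) and 0.34 ± 0.12 in AET_MET (edgeR adjusted p = 0.138). Without SED replicate 2 the change in AET was -0.48 and was called (edgeR adjusted p = 0.0138). That was the 1 call in the 9 fits without 1 library, where the change ran from -0.48 to -0.22 (edgeR adjusted p up to 0.298). With library sizes alone as the scaling, the change in AET_MET was 0.45 and was called (edgeR adjusted p = 0.0247), the 1 call among 9 other settings. The gene lies on chromosome 1 at 53061640 to 53068079 (GRCm38, plus strand).

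Gdf11, which patterns the embryonic axis and shares the receptors of myostatin, had 10.7, 13.2 and 14.9 CPM in AET_MET, 12.98, 12.8 and 11.6 CPM in AET, and 9.59, 8.24 and 12.9 CPM in SED. The 3 groups overlapped. No call was made for Gdf11, with log2 changes of 0.28 ± 0.16 in AET against SED and 0.35 ± 0.16 in AET_MET against SED. Between AET_MET and AET the change was 0.06 ± 0.16, with a 95% interval of -0.28 to 0.40, and its sign turned to -0.06 without AET_MET replicate 3.

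The type I receptor gene Acvr1b carried the change with the smallest p of the set. Its level was 41.01, 48.5 and 49.5 CPM in AET_MET, 37.7, 31.3 and 29.7 CPM in AET, and 66.3, 71.7 and 70.5 CPM in SED. No library of any group overlapped with those of another: AET was lowest, AET_MET lay between, and SED was highest. Acvr1b fell in AET against SED, at 32.9 ± 4.24 against 69.5 ± 2.85 CPM (SD, n = 3), which is a log2 change of -1.08 ± 0.10 and a fold of 0.473 (edgeR adjusted p = 7.16e-05). By p it ranked 13 among the 13944 genes in that comparison. It fell less far in AET_MET against SED, at 46.4 ± 4.65 CPM in AET_MET, a log2 change of -0.58 ± 0.10 (edgeR adjusted p = 0.00764). The difference between the trained groups was itself called, with a log2 change of 0.50 ± 0.10 in AET_MET against AET (edgeR adjusted p = 0.0238). The falls against SED were called in all 9 fits that left out 1 library and under all 9 other settings. The AET_MET against AET call was lost without AET_MET replicate 2, AET_MET replicate 3, AET replicate 2 or AET replicate 3, where the adjusted p reached 0.120. Acvr1b lies on chromosome 15 at 101174067 to 101213684 (GRCm38, plus strand).

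**Figure D2:**
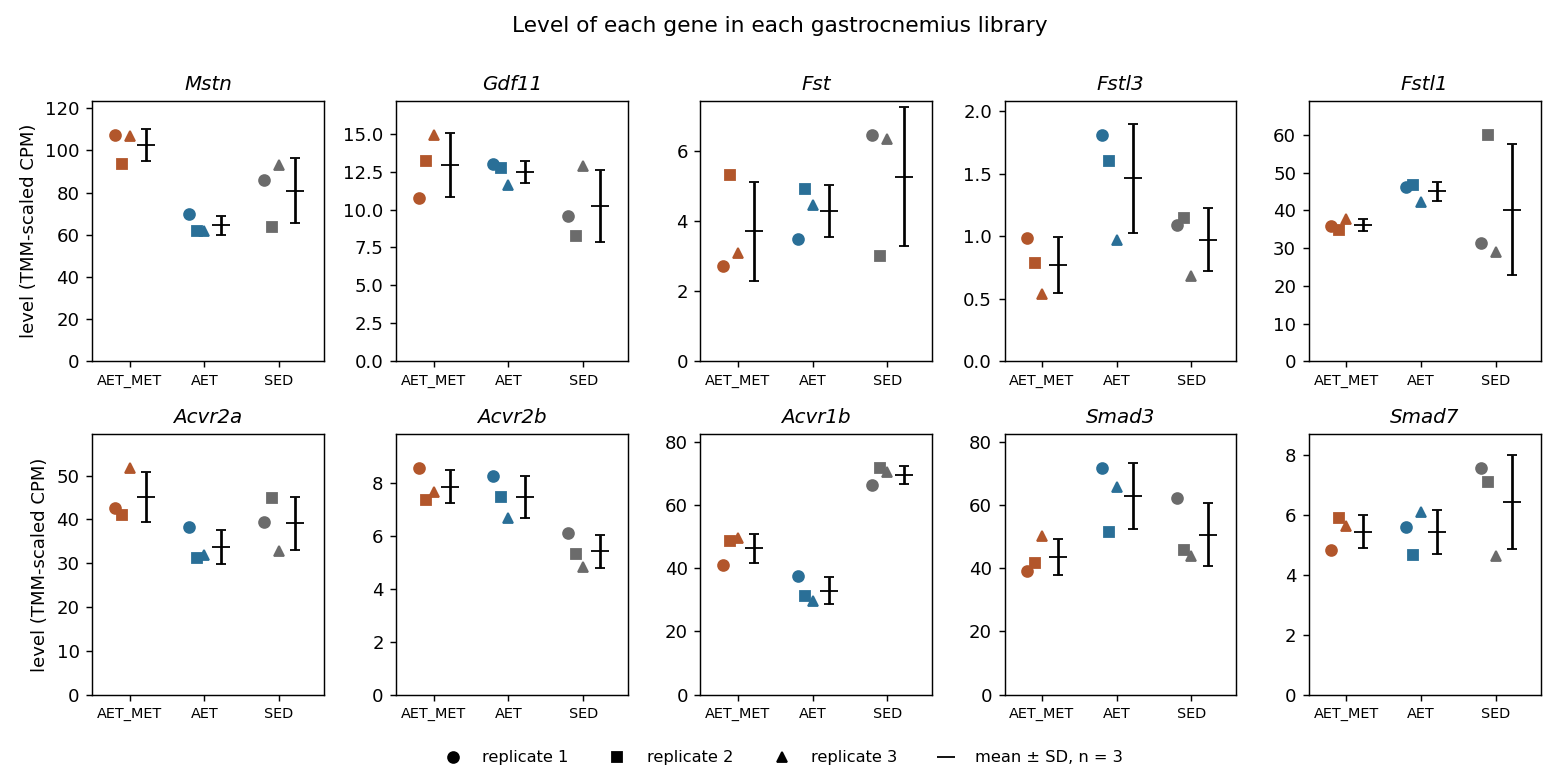
TMM-scaled CPM of each of the 10 genes in each library of AET_MET, AET and SED, with each y axis starting at 0; symbols mark the replicate and bars the mean ± SD of 3 libraries. Acvr1b separates into 3 levels (46.4, 32.9 and 69.5 CPM on average), Mstn is highest in AET_MET at 103 CPM, and SED replicate 2 lies apart for Fstl1 at 60.2 CPM.

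Of the type II receptor genes, Acvr2b rose in both trained groups against SED. It had 8.57, 7.36 and 7.68 CPM in AET_MET, 8.26, 7.46 and 6.69 CPM in AET, and 6.10, 5.33 and 4.84 CPM in SED. Every trained library lay above every SED library, and the trained groups overlapped. The log2 change was 0.46 ± 0.13 in AET against SED (edgeR adjusted p = 0.0375) and 0.53 ± 0.13 in AET_MET against SED (edgeR adjusted p = 0.0392). These comparisons share the SED libraries. Both calls sat near the threshold, and of the 9 fits that left out 1 library 3 and 2 kept them. The AET call was also lost in DESeq2 (adjusted p = 0.0560) and in the fit of AET and SED alone (edgeR adjusted p = 0.0592). The AET_MET call was also lost in limma-voom and in the fit of AET_MET and SED alone (adjusted p = 0.0515 in both). In AET against SED the call was lost without AET_MET replicate 2 or 3, AET replicate 1 or 2, or SED replicate 2 or 3 (adjusted p up to 0.133). In AET_MET against SED it was lost without any 1 of the AET_MET replicates, AET replicate 2 or 3, or SED replicate 2 or 3 (adjusted p up to 0.148). Between AET_MET and AET the change was 0.07 ± 0.13 (95% interval -0.20 to 0.35).

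Acvr2a, the other type II receptor gene, had 42.7, 40.9 and 51.8 CPM in AET_MET, 38.2, 31.2 and 32.0 CPM in AET, and 39.5, 45.0 and 32.8 CPM in SED. All AET_MET libraries lay above all AET libraries, and SED overlapped with both. The change in AET_MET against AET was 0.42 ± 0.13 and did not pass (edgeR adjusted p = 0.0891). It was called with library sizes alone as the scaling (adjusted p = 0.0380) and in DESeq2 (adjusted p = 0.0452). Against SED the changes were -0.21 ± 0.13 in AET and 0.21 ± 0.13 in AET_MET. Its exons overlap over 446 bases with those of Orc4 on the other strand, a gene with at most 359 counts in a library.

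**Figure D3:**
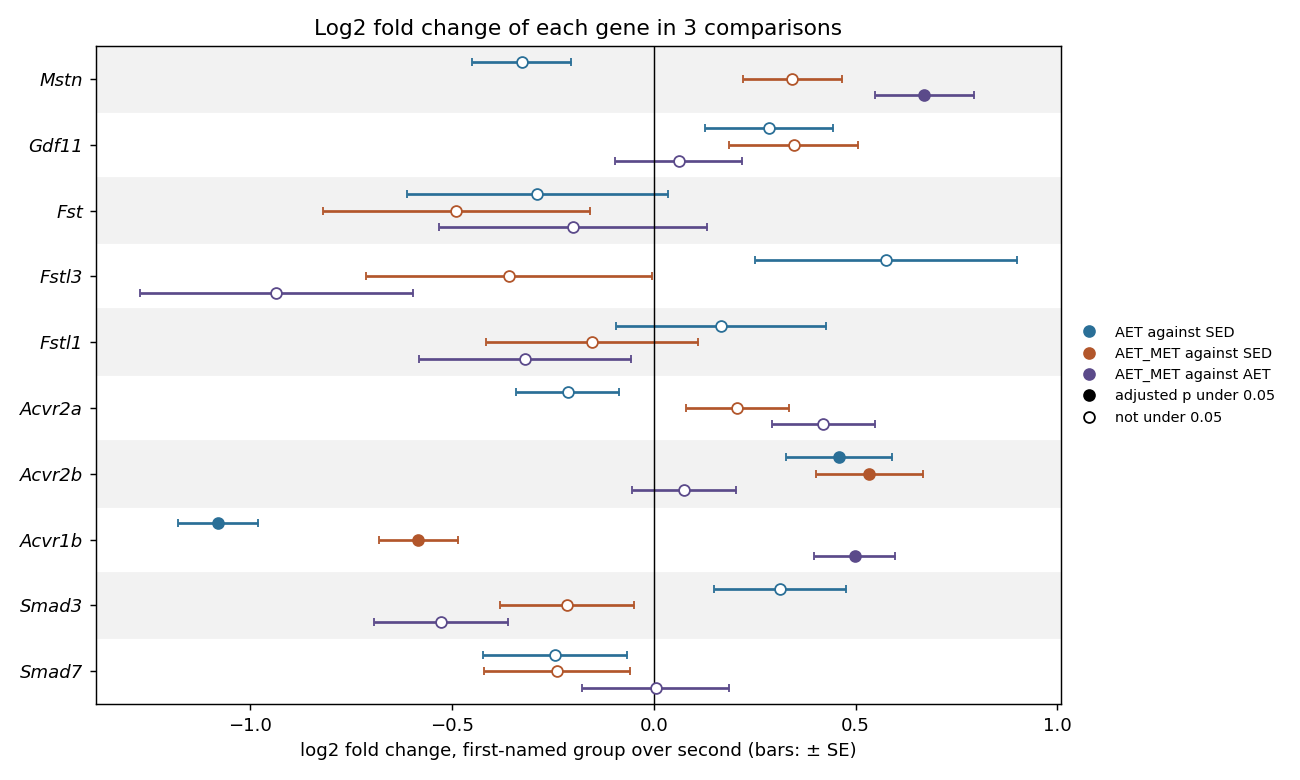
Log2 fold change ± SE (x axis) of each of the 10 genes (rows) in AET against SED, AET_MET against SED and AET_MET against AET; filled points have an edgeR adjusted p under 0.05. Acvr1b is filled in all 3 comparisons (-1.08, -0.58 and 0.50), Acvr2b in both against SED (0.46 and 0.53), and Mstn in AET_MET against AET (0.67).

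With all 9 libraries, Fst, Fstl3 and Fstl1 gave 0 calls in each comparison by edgeR and by limma-voom. DESeq2 also gave 0 calls among them, but it set no adjusted p for Fstl3 in AET_MET against SED or against AET. Fstl3, lower in AET_MET than in AET, gave their 1 edgeR result with an unadjusted p under 0.05. Fst had 2.71, 5.33 and 3.10 CPM in AET_MET, 3.48, 4.92 and 4.46 CPM in AET, and 6.48, 2.99 and 6.35 CPM in SED. The groups overlapped, and the change in AET against SED had a 95% interval of -1.01 to 0.44. Fstl3 had 0.987, 0.787 and 0.539 CPM in AET_MET, 1.81, 1.60 and 0.973 CPM in AET, and 1.09, 1.14 and 0.684 CPM in SED. Its change in AET_MET against AET was -0.94 ± 0.34 (edgeR adjusted p = 0.130), on counts of 12 to 17 in AET_MET and 24 to 41 in AET. The exons of Fstl3 overlap over 1157 bases with those of Prss57 on the other strand, which had at most 4 counts in a library.

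Fstl1, a secreted relative of follistatin made by mesenchymal cells and muscle, had 35.9, 34.8 and 37.8 CPM in AET_MET, 46.3, 46.8 and 42.3 CPM in AET, and 31.4, 60.2 and 29.0 CPM in SED. SED replicate 2 lay well above the other SED libraries. Without that library, Fstl1 was called higher in AET than in SED (log2 change 0.58, edgeR adjusted p = 0.00382), against 0.17 ± 0.26 with it (edgeR adjusted p = 0.725). Its change in AET_MET against SED turned from -0.15 ± 0.26 to 0.26 without SED replicate 2 and was called in neither case. The summed level of 13 fibroblast markers was 1626 to 1794 CPM in AET_MET, 1635 to 2003 in AET and 1991 to 2329 in SED, and that of 13 smooth muscle and pericyte markers was 3016 to 3205, 2920 to 3403 and 2934 to 3164 CPM in the same order. The fibroblast sum does not speak for each marker. In AET 1 of the 13 was called higher than SED and 1 lower, where 5.82% and 6.45% of all genes were. In AET_MET 1 was called higher and 1 lower, where 2.17% and 2.42% were. Higher estimates than SED were seen for 6 of the 13 in AET and 3 in AET_MET, with median log2 changes of -0.05 and -0.17. The gene with the highest level in the smooth muscle list was Des, and the sum of that list does not speak for each marker. Gene by gene, 2 of these 13 were called higher in AET than in SED, where 5.82% of all genes were. At an unadjusted p under 0.05, 7 were higher, with a list median of 0.35 on the log2 scale. In AET_MET against AET 0 of the 13 were called by edgeR and 5 were lower at an unadjusted p under 0.05, with a median of -0.21. The part of either cell type in the Fstl1 levels was not tested.

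Inside the cell, Smad3 had 39.0, 41.6 and 50.1 CPM in AET_MET, 71.7, 51.5 and 65.6 CPM in AET, and 62.2, 45.8 and 44.0 CPM in SED. Each AET library lay above each AET_MET library, and SED overlapped with both. The change in AET_MET against AET was -0.53 ± 0.17 and did not pass (edgeR adjusted p = 0.108), while DESeq2 called it (adjusted p = 0.0219). Smad7, which SMAD signals induce as their own brake, had 4.81, 5.88 and 5.61 CPM in AET_MET, 5.58, 4.65 and 6.08 CPM in AET, and 7.56, 7.09 and 4.64 CPM in SED. The groups overlapped, and the change in AET_MET against AET was 0.00 ± 0.18, with a 95% interval of -0.39 to 0.40. Against SED, Smad7 changed by -0.24 ± 0.18 in AET and by -0.24 ± 0.18 in AET_MET, neither of them called.

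Counted together, 2 of the 10 genes were called in AET against SED, 1 higher and 1 lower, where 12.3% of all tested genes were called, 5.82% higher and 6.45% lower. In AET_MET against SED 2 were called, 1 higher and 1 lower, against a background of 4.59%, with 2.17% higher and 2.42% lower. Between AET_MET and AET 2 were called, both higher in AET_MET, where 3.43% of all genes were called, 1.66% higher and 1.77% lower. None was called lower there by edgeR, DESeq2 called Smad3 lower, and Smad3 and Fstl3 were lower at an unadjusted p under 0.05. Libraries did not overlap between groups for 2 genes in AET against SED, 3 for AET_MET against SED and 5 between AET_MET and AET, where 32.7%, 26.8% and 27.9% of all genes did not overlap. The median log2 change of the 10 was -0.02 in AET against SED, -0.18 for AET_MET against SED and 0.03 between AET_MET and AET, beside medians of 0.01, 0.00 and 0.00 over all genes.

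**Figure D4:**
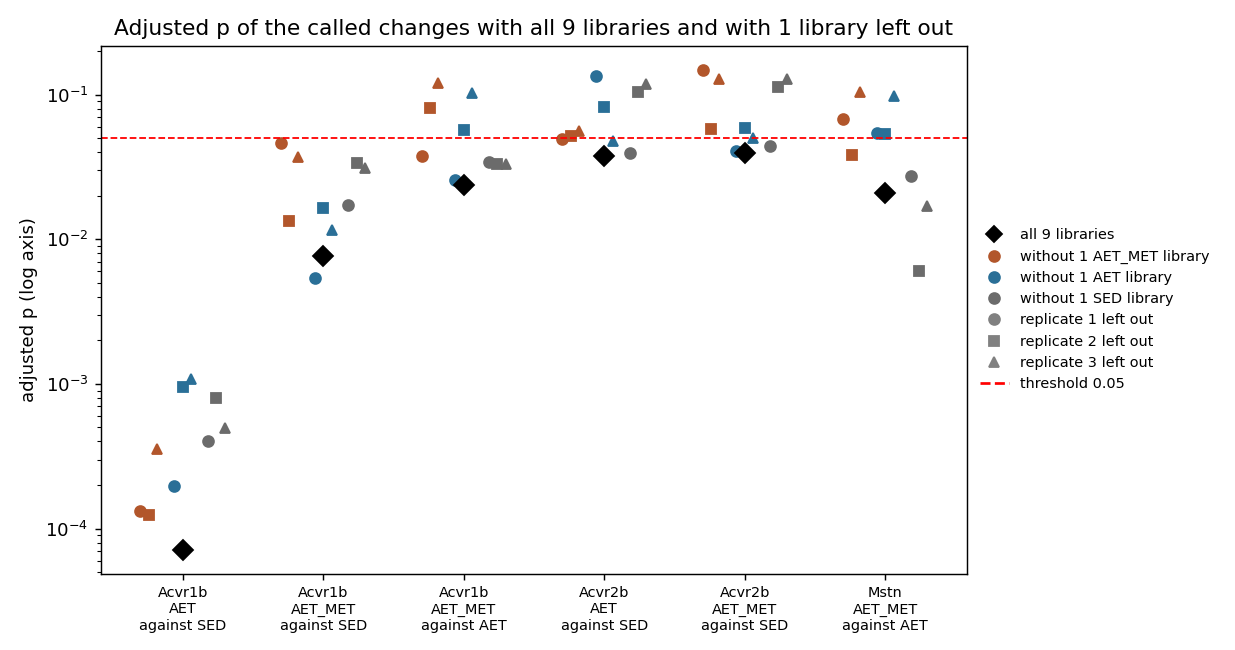
Adjusted p (log axis) of the 6 called changes, with all 9 libraries (diamonds) and with 1 library left out (colour gives its group, shape its replicate number); the dashed line is the threshold of 0.05. Both falls of Acvr1b against SED stay under the line, and the other 4 changes cross it without some libraries, up to 0.148 for Acvr2b in AET_MET against SED.

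The genes with levels most like those of the 3 called genes over the 9 libraries were listed by Pearson's r of log2 CPM among 8407 genes of at least 5 CPM, as a description. For Acvr1b they were Ccng2 (r = 0.971), Tfdp2 (0.971) and Spag9 (0.970). For Acvr2b they were Pik3c2b (r = 0.981), Snapc3 (0.969) and Tgfb2 (0.966), the last of which encodes another ligand of the family. For Mstn they were Phtf2 (r = 0.966), Mkrn2 (0.951) and Spryd7 (0.951). All points come from the same 9 libraries and share their scaling and depth.

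Of 16 other receptor and co-receptor genes tested, 1 rose and 3 fell in AET against SED, where 5.82% of all genes rose and 6.45% fell, and their median log2 change was 0.02. Bmpr1b, a type I BMP receptor gene, fell to 12.7, 11.4 and 14.2 CPM in AET, against 21.3, 21.5 and 19.8 CPM in SED (log2 change -0.71 ± 0.10, edgeR adjusted p = 0.00114). Tgfbr3, which encodes the co-receptor betaglycan, fell to 46.0, 41.4 and 35.8 CPM in AET, against 72.5, 57.7 and 76.3 CPM in SED (log2 change -0.75 ± 0.12, edgeR adjusted p = 0.00224). Neither gene's libraries overlapped, and both calls were kept in 9 of 9 fits without 1 library. Tgfbr1, the other type I receptor gene that can serve myostatin, fell as well, at 47.3, 41.3 and 41.04 CPM in AET and 64.7, 57.6 and 52.3 CPM in SED (log2 change -0.43 ± 0.10, edgeR adjusted p = 0.0141). Leaving out AET replicate 2 or 3, or SED replicate 1, ended that call. Acvr1, a type I receptor gene of the BMP and activin branch, rose by 0.74 ± 0.20 (edgeR adjusted p = 0.0367), a call kept in 2 of 9 fits without 1 library.

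In AET_MET against SED, 2 of the 16 receptor genes rose, where 2.17% of all genes did, and 0 fell by edgeR, with 2 lower at an unadjusted p under 0.05. By DESeq2, by edgeR without a filter and by edgeR without SED replicate 2, 1 was called lower. Bmpr1a, a type I BMP receptor gene, rose by 0.40 ± 0.08 (edgeR adjusted p = 0.0184, kept in 5 of 9 fits without 1 library). The co-receptor gene Rgma rose by 0.56 ± 0.15 (edgeR adjusted p = 0.0498, kept in 1 of 9). In AET_MET against AET, where 3.43% of all genes were called, 0 of the 16 were called by edgeR and by limma-voom. DESeq2 called 1 of them higher, edgeR with library sizes alone 3 and edgeR without a filter 2, while 4 were higher and 2 lower at an unadjusted p under 0.05.

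Of 13 tested ligand genes other than Mstn and Gdf11, 3 rose and 1 fell in AET against SED, where 5.82% of all genes rose and 6.45% fell. The 4 calls became 0 without SED replicate 3, 1 without AET replicate 1, AET replicate 2, SED replicate 1 or SED replicate 2, and 2 without AET replicate 3. Tgfb2 was highest among the called ones, at 21.2, 16.2 and 15.6 CPM in AET against 13.5, 12.4 and 11.2 CPM in SED (log2 change 0.51 ± 0.13, edgeR adjusted p = 0.0234). It also rose in AET_MET against SED, at 19.9, 15.7 and 18.4 CPM in AET_MET (log2 change 0.54 ± 0.13, edgeR adjusted p = 0.0378). Leaving out 1 library kept them in 6 and 3 of 9 fits. Inhba, which encodes the subunit of activin A, another ligand of ACVR2A and ACVR2B, had 0.802, 1.34 and 1.35 CPM in AET_MET, 2.58, 2.26 and 2.51 CPM in AET, and 1.42, 1.06 and 1.61 CPM in SED. It was higher in AET than in the other groups, with log2 changes of 0.85 ± 0.24 against SED (edgeR adjusted p = 0.0368) and -1.05 ± 0.25 in AET_MET against AET (edgeR adjusted p = 0.0384). Leaving out 1 library kept these in 3 and 2 of 9 fits. Inhbb, the gene of the activin B subunit, fell by 1.17 ± 0.35 in AET against SED (edgeR adjusted p = 0.0489) and Gdf10 rose by 1.05 ± 0.28 (edgeR adjusted p = 0.0331), each kept in 3 of 9. Both had low levels. Inhbb had 1.72, 0.976 and 0.973 CPM in AET and 3.54, 2.47 and 2.15 CPM in SED. Gdf10 had 6.83, 5.23 and 3.41 CPM in AET and 1.70, 2.77 and 2.93 CPM in SED.

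**Figure D5:**
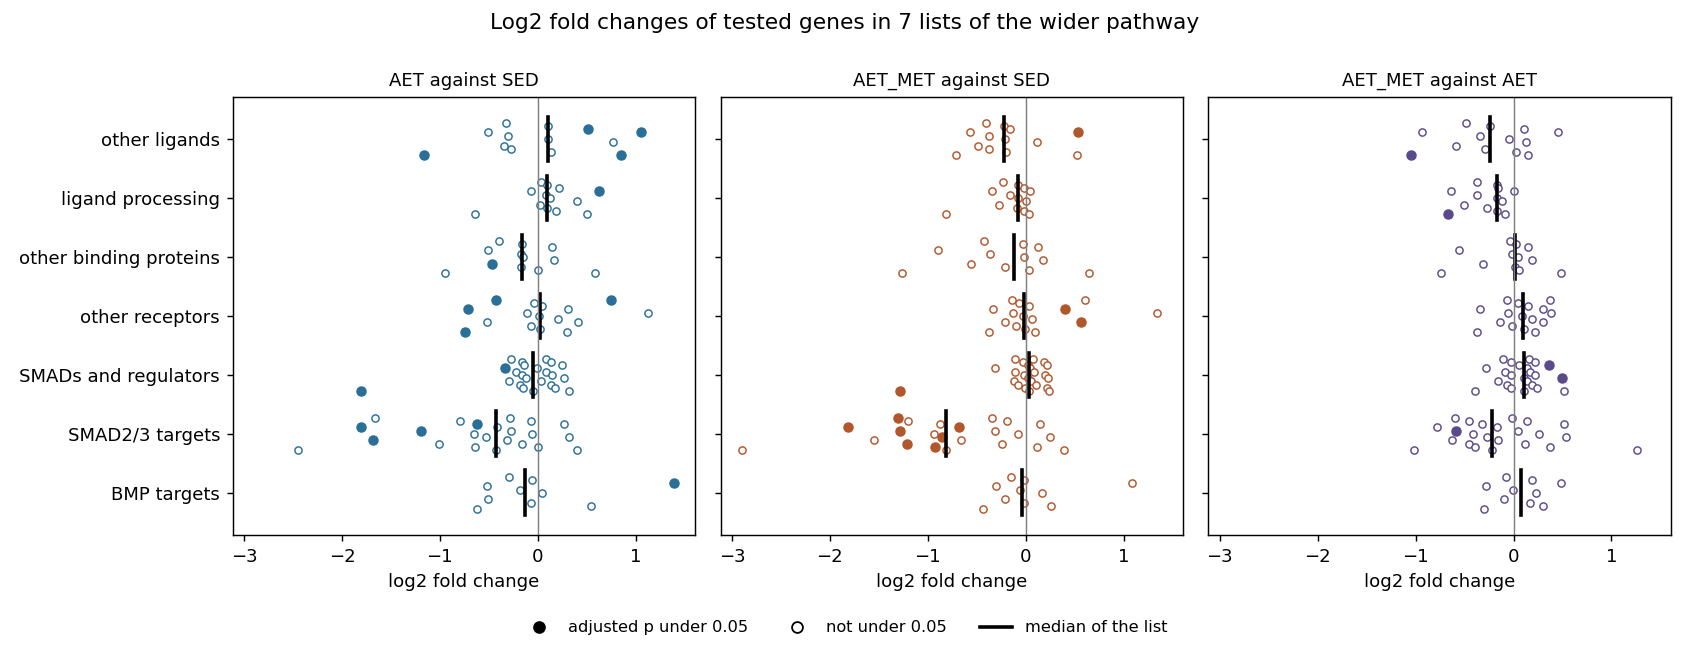
Log2 fold changes (x axis, shared by the panels) of the tested genes in 7 lists around the pathway, 1 panel per comparison; each point is a gene, filled where the edgeR adjusted p is under 0.05, and black bars are list medians. Of these 7 lists, that of the SMAD2 and SMAD3 targets lies furthest to the left in both comparisons with SED, with medians of -0.43 and -0.81.

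Among genes that hold or free ligands in latent complexes, Fbn1, which encodes the matrix protein fibrillin, was lower in AET_MET than in AET, at 79.2, 80.9 and 71.7 against 121, 119.6 and 129.6 CPM (log2 change -0.67 ± 0.13, edgeR adjusted p = 0.0250, kept in 3 of 9 fits without 1 library). It was the 1 gene of 13 that edgeR called in that comparison, where 3.43% of all genes were called. In AET against SED, where 12.3% of all genes were called, 1 of the 13 was called, Lrrc32, which anchors latent TGF-beta (0.63 ± 0.18, kept in 2 of 9). Of 12 other extracellular binding proteins, 1 fell in AET against SED, where 6.45% of all genes fell. That was the proteoglycan gene Dcn (-0.47 ± 0.14, kept in 1 of 9), whose product can bind myostatin and TGF-beta.

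Of 23 tested SMAD genes and regulators, 2 fell in AET against SED, near the 6.45% of all genes that did. By edgeR and by DESeq2 0 rose, with 3 higher at an unadjusted p under 0.05 and 1 called higher by edgeR where 3 libraries had to reach 5 CPM. Tgif1, a corepressor that acts with SMAD proteins, fell to 2.77, 4.29 and 3.16 CPM in AET, against 12.7, 13.3 and 9.87 CPM in SED (log2 change -1.80 ± 0.18, edgeR adjusted p = 0.000119). In AET_MET it had 4.69, 5.65 and 4.35 CPM, a log2 change of -1.29 ± 0.17 against SED (edgeR adjusted p = 0.00282). Both calls were kept in 9 of 9 fits without 1 library. Smad5, a transducer of the BMP branch, fell by 0.34 ± 0.07 in AET against SED (edgeR adjusted p = 0.0119), also kept in 9 of 9. In AET_MET against AET, 2 of the 23 were called higher, where 1.66% of all genes were. Both are ubiquitin ligase genes of the family that marks receptors and SMAD proteins for removal. Nedd4l changed by 0.50 ± 0.11 (edgeR adjusted p = 0.0365) and Nedd4 by 0.36 ± 0.09 (edgeR adjusted p = 0.0470), which 3 and 1 of the 9 fits without a library kept.

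Some genes known to rise on SMAD2 and SMAD3 signalling were lower in the trained groups. Of 23 tested, 4 fell in AET against SED, where 6.45% of all genes fell, and 7 fell in AET_MET against SED, where 2.42% did. The list was chosen with earlier results of these data known, so these shares are a description. With all 9 libraries 0 rose in these comparisons by edgeR, DESeq2 and limma-voom, and 1 and 0 were higher at an unadjusted p under 0.05. Without SED replicate 2, 1 was called higher in AET. The median log2 changes of the list were -0.43 and -0.81, beside 0.01 and 0.00 over all genes. Tgif1, given above, is on this list as well. Lox, which encodes the enzyme that cross-links collagen, had 15.8, 25.3 and 16.2 CPM in AET_MET, 14.5, 17.3 and 12.4 CPM in AET, and 40.7, 49.4 and 51.4 CPM in SED. It fell by 1.68 ± 0.20 on the log2 scale in AET (edgeR adjusted p = 0.00138) and by 1.30 ± 0.20 in AET_MET (edgeR adjusted p = 0.0105), the second call being lost without AET_MET replicate 3. Every trained library of Lox lay below every SED library. Nox4, an oxidase gene, fell to 2.72, 3.20 and 2.596 CPM in AET, against 5.29, 8.10 and 6.11 CPM in SED (log2 change -1.19 ± 0.18, edgeR adjusted p = 0.00155). Col1a1, a fibrillar collagen gene, fell to 33.6, 30.3 and 28.5 CPM in AET_MET, against 69.3, 145 and 110.3 CPM in SED (log2 change -1.82 ± 0.25, edgeR adjusted p = 0.0125), a call lost without AET_MET replicate 1 or 3. The count of 7 was 2 without AET_MET replicate 3, 4 without AET_MET replicate 1 and 4 without SED replicate 2. Between the trained groups 1 of the 23 was called, where 3.43% of all genes were. That was the collagen gene Col1a2, at 94.3, 100.6 and 88.7 CPM in AET_MET, 138 to 149.7 CPM in AET and 165 to 246 CPM in SED. Its groups did not overlap, with log2 changes of -0.59 ± 0.13 in AET_MET against AET (edgeR adjusted p = 0.0369, kept in 3 of 9 fits without 1 library), -0.62 ± 0.13 in AET against SED (0.0114, kept in 7) and -1.21 ± 0.13 in AET_MET against SED (0.00155, kept in 9). The list holds matrix genes that fibroblasts and tendon cells express, and the summed level of 11 tendon cell markers was 120 to 269.7 CPM in AET_MET, 179.8 to 392 in AET and 392 to 629 in SED. The median log2 change of these tendon markers was -0.76 in AET against SED and -1.03 in AET_MET against SED. By edgeR, 1 of the 11 was called lower than SED in AET and 0 in AET_MET. At an unadjusted p under 0.05, 1 and 7 were lower. The part of either cell type in the falls was not tested.

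Of 10 tested genes that follow BMP signalling, 1 was called in AET against SED, where 12.3% of all genes were, and 3 were called without a filter on low counts, 2 higher and 1 lower. The called gene was Id4, higher in AET than in SED (1.39 ± 0.35, edgeR adjusted p = 0.0224, kept in 5 of 9 fits without 1 library). It was at 3.10, 1.72 and 1.74 CPM in AET and 0.898, 0.661 and 0.928 CPM in SED. In AET_MET the list had 0 calls against SED and against AET by edgeR, DESeq2 and limma-voom, with 1 gene higher and 1 lower than SED at an unadjusted p under 0.05 and 0 against AET.

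The summed level of 10 slow fiber genes was 133 to 799.98 CPM in AET_MET, 402 to 1377 in AET and 903 to 1112 in SED, and that of 10 satellite cell markers was 52.6 to 65.9, 52.0 to 54.9 and 72.1 to 79.6 CPM in the same order. By edgeR 0 of the 10 slow fiber genes were called in any comparison. In AET against SED 1 had a higher estimate, and 0 had in AET_MET against SED or against AET. Their median log2 changes were -0.44, -1.23 and -0.81 in these 3 comparisons. The satellite cell sum does not speak for each marker: of 8 tested, 4 had higher estimates than SED in AET and 4 in AET_MET, with median log2 changes of -0.08 and 0.05. By edgeR, 2 of the 8 were called lower than SED in AET and 1 in AET_MET, where 6.45% and 2.42% of all genes were. At an unadjusted p under 0.05, 2 and 3 were lower, and 0 were higher in either comparison. The 12 Schwann cell markers summed to 59.6 to 120 CPM in AET_MET, 129.5 to 212 in AET and 78.0 to 85.8 in SED. Of them, 3 were called higher in AET than in SED and 1 lower in AET_MET than in AET, where 5.82% and 1.77% of all genes were. The 10 adipocyte markers summed to 458 to 803 CPM in AET_MET, 473 to 574 in AET and 920.2 to 1004 in SED. Plin4 had the highest level in that list and was called lower in both trained groups than in SED, while 8 of the 10 had higher estimates in AET than in SED and 7 in AET_MET than in SED, with median log2 changes of 0.31 and 0.36. No marker of these lists was at 0 in all libraries, and their part in the levels of Mstn, Acvr1b or Acvr2b was not tested.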

How the data were processed

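RNA was sequenced from 9 gastrocnemius libraries, made with a SMARTER mRNA kit per the labels' protocols. The authors deposited expected counts by gene identifier for each library, as their file gives them. Per the submitters' processing notes, the tools were RSEM 1.3.0, STAR 2.5.3a and edgeR 3.34.0, on the build GRCm38. The sources used here state no annotation release, filter or strand setting, so reads of overlapping genes on opposite strands cannot be told apart.

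Symbols from GENCODE M21 matched 52083 of 55416 identifiers. Counts were rounded and tested with edgeR 4.0.16 in R 4.3.3 (TMM, filterByExpr, robust quasi-likelihood, all 9 libraries, 6 residual degrees of freedom, common biological coefficient of variation 0.134). The SE is the log2 change divided by the square root of F. DESeq2 1.42.0 and limma-voom 3.58.1 were alternatives, with other scalings and filters, fits of the 2 groups compared, a replicate block and each library left out. Every replicate pair had a chi-square of 15.7 or more for each degree of freedom, beyond counting noise, and none was merged. Unmatched identifiers took 2.69% to 5.68% of counts.

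The genes and lists were chosen with earlier results of these data known. All 10 genes are named, then up to 4 called genes with the smallest p per list and comparison, and 3 genes most like each called one. Promoter windows are from RefSeq.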

Additional observations from a re-analysis of the deposited data

How the results depend on the processing

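Of the 10 genes, 2 were called in each comparison. DESeq2 gave 1 in AET against SED and 4 in AET_MET against AET, limma-voom gave 1 in AET_MET against SED, and fits of the 2 groups compared gave 1 in each comparison with SED. Leaving out 1 library gave 1 to 3 in AET against SED, 1 to 2 in AET_MET against SED and 0 to 2 in AET_MET against AET. Over all genes, the 1712, 640 and 478 calls became 934 to 1509, 141 to 655 and 23 to 461 without 1 library, lowest without AET replicate 1 (934) and AET_MET replicate 3 (141 and 23). The 478 became 767 with library sizes alone, 731 without a filter and 876 in DESeq2. Library sizes alone moved the median log2 change of all genes by 0.10 in AET_MET against SED and raised the share of calls that were higher from 47.3% to 79.5%, and from 48.3% to 79.7% in AET_MET against AET. Upper-quartile scaling raised it from 47.4% to 58.0% in AET against SED. The sign of Smad7 in AET_MET against AET (0.00) turned to -0.0012 with upper-quartile scaling and -0.015 where 3 libraries had to reach 5 CPM, and ran from -0.10 to 0.10 without 1 library. Without 1 library, Gdf11 in the same comparison ran from -0.060 to 0.18, and Fstl1 from -0.024 to 0.58 in AET against SED and from -0.34 to 0.26 in AET_MET against SED. The cause of these shifts was not tested. Of the 537 refits of single genes of the set, 497 kept direction and side of the threshold, 8 turned direction, 6 gained a call and 26 lost one. Most of the changes refitted were not called with all 9 libraries, so the 497 mainly count changes that stayed uncalled. All 26 losses fell on the called changes of Acvr2b, Mstn and Acvr1b.

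Deviations of same-numbered libraries from their group means had correlations of -0.051 to 0.184. Differently numbered libraries were not compared, so these values cannot decide whether the numbers pair the samples. A replicate block left 2 of the 10 genes called in each comparison, and 1530, 535 and 358 of all genes. The pathway lists were put through the same alternatives after the data were seen. Under the block, the calls of Nedd4l, Nedd4 and Inhba in AET_MET against AET were lost, as were those of Inhba, Inhbb, Lrrc32 and Dcn in AET against SED, and the SMAD2 and SMAD3 targets called in AET against SED went from 4 to 6. Fstl3 had 12 to 41 counts in a library.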
